A study of Caenorhabditis elegans with 52 samples.

Results

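The right piRNA cluster is a 3.8-Mb stretch of *C. elegans* chromosome IV (ce11, 13.5 to 17.3 Mb) that ends 193829 bp before the right end of the chromosome. Its members are the nucleosomes whose called center lies between those coordinates, a rule that used position only. They number 21515 of 545572 in the low-salt table of *prde-1* and wild type, 21932 of 568635 in the high-salt table of the same strains, 21433 of 541779 in the low-salt table of auxin and ethanol, and 21605 of 550900 in the high-salt table of auxin and ethanol. The label was checked against the annotation: the stretch holds the 5′ ends of 11534 annotated piRNA genes, 75.1% of the 15363 in the genome, of which 5769 lie on the plus strand and 5765 on the minus strand. Neighbouring 5′ ends had a median distance of 166 bp, and 56.3% lay within 200 bp of each other. A total of 480 protein-coding genes also overlap it.

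piRNAs of *C. elegans* are small RNAs that begin with a uracil and guide the Argonaute protein PRG-1 in the germ line, where they recognise foreign and transposon transcripts. Type-I piRNA genes each make their own short precursor, transcribed by RNA polymerase II, and carry an 8-bp core, the Ruby motif, upstream of the 5′ end. They are packed into clusters on chromosome IV, where the upstream sequence transcription complex (USTC), a group of proteins that includes PRDE-1, gathers. A nucleosome is DNA wrapped around a histone octamer, and its midpoint is the dyad. ISW-1 is the ATPase of the ISWI family of chromatin remodellers, which space nucleosomes.

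The assay was native ChIP-seq of H3, in which chromatin is not crosslinked, on germ nuclei from young adults. Wild type was strain VC2010, and *prde-1* was the null allele mj207 on chromosome V in strain SX2499, backcrossed and, per the study's methods, harvested later than wild type. Strain YL701, with ISW-1::eGFP::AID on chromosome III and on chromosome II the insertion wrdSi51, in which the *mex-5* promoter drives TIR1 in the germ line, was kept for 3 h with ethanol or with 1 mM auxin. Auxin lets TIR1 direct the degradation of AID-tagged protein, and both YL701 groups carry both transgenes. Each group was prepared with a last wash at 150 mM NaCl, called low salt, or at 500 mM NaCl, called high salt, which is the more stringent. The 2 samples of each of the 8 groups were merged by the authors into 1 library, so there is 1 value per group, no replicate error and no test. Intervals given below are exact 95% binomial intervals of a median over nucleosomes and cover the spread over nucleosomes only. Those given for genes or copies of a motif are over genes or copies, which can share a nucleosome and then count it more than once. Loss of PRDE-1 and of ISW-1 was not checked here, YL701 does not appear among the strains listed in the methods, and for some samples the genotype or salt field contradicts the title, which was used.

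The promoters shown as examples are those of the piRNA genes with the lowest numbers in the cluster and some of those beside its highest nucleosomes. The sequences below run 5′ to 3′ on the strand of the gene, from 60 bases upstream of the 5′ end to the last base of the piRNA, which is in capitals. The core of the Ruby motif is also in capitals where CTGTTTCA was found. They were read from the ce11 genome, on chromosome IV. The annotated stretch of 21ur-1 begins with A, and those of the other genes shown begin with T.
21ur-1: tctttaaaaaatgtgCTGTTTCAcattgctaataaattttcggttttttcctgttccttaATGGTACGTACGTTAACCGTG
21ur-2: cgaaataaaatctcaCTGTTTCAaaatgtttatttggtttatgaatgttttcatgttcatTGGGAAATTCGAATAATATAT
21ur-4: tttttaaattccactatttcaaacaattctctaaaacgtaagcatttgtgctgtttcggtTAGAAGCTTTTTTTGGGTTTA
21ur-5: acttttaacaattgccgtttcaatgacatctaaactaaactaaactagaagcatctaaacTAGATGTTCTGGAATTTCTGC
21ur-6: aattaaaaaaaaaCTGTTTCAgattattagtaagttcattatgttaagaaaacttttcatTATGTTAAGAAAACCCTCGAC
21ur-7: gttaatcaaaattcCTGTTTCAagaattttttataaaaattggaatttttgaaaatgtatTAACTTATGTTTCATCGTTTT
21ur-8191: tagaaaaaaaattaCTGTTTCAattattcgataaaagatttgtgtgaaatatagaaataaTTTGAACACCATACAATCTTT
21ur-14044: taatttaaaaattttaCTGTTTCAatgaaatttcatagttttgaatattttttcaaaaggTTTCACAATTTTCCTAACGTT

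Of these, 21ur-1 (chrIV:16687047-16687127, plus strand), 21ur-6 (chrIV:14950354-14950434, plus strand), 21ur-8191 (chrIV:14902961-14903041, plus strand) and 21ur-14044 (chrIV:16381124-16381204, plus strand) lie between protein-coding genes. The stretch of 21ur-2 (chrIV:16435595-16435675, minus strand) lies in an intron of *dlc-3*, that of 21ur-4 (chrIV:13730709-13730789, minus strand) in an intron of *ent-4*, that of 21ur-5 (chrIV:16170350-16170430, plus strand) in an intron of *gln-3*, and that of 21ur-7 (chrIV:14813533-14813613, plus strand) in an intron of Y57G11C.46. The exact core was found upstream of all of them except 21ur-4 and 21ur-5. CTGTTTCA, searched on the strand of the gene with its start 60 to 30 bp upstream of the 5′ end (TGAAACAG on the other strand), was present at 3893 of the 11534 genes, or 33.8%, and at 77.3% with 1 mismatch allowed. It started most often 46 bp upstream, in 33.7% of the genes that had it. Windows of the same length tiled over the whole cluster held it in 1.52% per strand and those outside both piRNA clusters in 0.0945%, against 39.6% of the 2807 piRNA genes of the left cluster (4.8 to 7 Mb) and 6.63% of the 649 piRNA genes off chromosome IV.

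Nucleosomes of the cluster were higher than the rest of the genome in wild type and in both YL701 groups, and close to the rest of the genome in *prde-1*. Occupancy here is the authors' H3 signal at the summit of a nucleosome after subtraction of input, scaled by them to 1 total per library. The median over the cluster was 241.9 in wild type under low salt, against 119.8 outside both clusters, and 247.7 against 125.1 under high salt. The *prde-1* median was 127.9 against 121.1 under low salt and 120.7 against 132.9 under high salt. It was 230.7 against 125.5 with ethanol and 191.4 against 106.7 with auxin under low salt, and 219.6 against 98.4 with ethanol and 179.2 against 112.6 with auxin under high salt. The log2 ratio of cluster to outside was thus 1.01 (interval 0.99 to 1.05) in wild type, against 0.08 (0.05 to 0.11) in *prde-1*, under low salt, and 0.99 (0.95 to 1.01) and −0.14 (−0.17 to −0.11) under high salt. It was 0.88 with ethanol and 0.84 with auxin under low salt, and 1.16 and 0.67 under high salt. The cluster has 32.4% GC against 35.6% outside, and 10.7% of its bases lie in runs of 5 or more A or T against 8.54%. Comparing nucleosomes only with others of like GC content gave 0.99, −0.05, 1.14 and −0.22 for wild type and *prde-1* under low and then high salt.

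Blocks of the same length, set as far from the right end of each of the other 5 chromosomes, had ratios between −0.23 and 0.51 in wild type under low salt and between −0.19 and 0.26 under high salt. The left piRNA cluster reached 0.28 and 0.39 in wild type and −0.25 and −0.23 in *prde-1*, where both of its medians lay below the rest of the genome. The 2 wild-type libraries differed in the shape of the distribution within the right cluster rather than in its median. The 90th percentile of occupancy was 757 under low salt and 1372 under high salt, a log2 ratio to the outside 90th percentile of 0.97 and 1.94. The 99th percentile was 1571 and 3065, ratios of 0.97 and 2.15. Ethanol under high salt had a like tail, with a 99th percentile of 3727 and a ratio of 2.20, and auxin under high salt a shorter one, at 1803 and 1.18.

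The cluster supplied 3.86% of the nucleosomes of the high-salt *prde-1* table and 59.2% of all nucleosomes in the top 1% of wild type, 3365 in number. In *prde-1* under high salt it supplied 3.34%, or 190. Under low salt the shares of the top 1% were 27.8% in wild type and 2.24% in *prde-1*. They were 20.6% with ethanol and 14.2% with auxin under low salt, and 52.2% and 25.1% under high salt. The blocks near the other chromosome ends each supplied between 0.563% and 2.06% in wild type under high salt. The left cluster, with 2.18% of the nucleosomes of that table, supplied 11.8% in wild type and 1.25% in *prde-1*, and with ethanol and auxin in the high-salt table it supplied 16.3% and 10.3%. The wild-type top nucleosomes of the cluster lay beside piRNA genes, with 94.4% of them within 250 bp of a piRNA 5′ end against 63.2% of all nucleosomes of the cluster, while in *prde-1* under high salt 16.3% did.

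Per nucleosome, occupancy was lower in *prde-1* than in wild type by a median log2 of −0.89 (−0.93 to −0.85) under low salt and −1.25 (−1.31 to −1.19) under high salt, each relative to the median outside both clusters. With auxin against ethanol it was −0.18 (−0.21 to −0.16) under low salt and −0.69 (−0.73 to −0.66) under high salt. The blocks near the other chromosome ends had auxin changes between −0.23 and 0.08 in the low-salt table, a range that includes the value of the cluster, and between −0.03 and 0.23 in the high-salt one. Their *prde-1* changes lay between 0 and 0.05 and between −0.05 and 0.18. The left cluster changed by −0.43 and −0.48 in *prde-1* and by 0.04 and −0.28 with auxin. Folds were computed after adding 1 to each value, which understates those between low values and sets the size of those to or from 0. In the cluster 3833 nucleosomes under low salt and 4224 under high salt were above 0 in wild type and at 0 in *prde-1*. The reverse held for 1627 and 2003. Outside both clusters 81816 of 512043 and 81581 of 534314 went to 0, and 80246 and 85954 came from it. With 1 merged library per group, a nucleosome was counted as lower or higher when it differed by at least 2-fold. In *prde-1* 48.1% of the cluster's nucleosomes were lower by this measure under low salt, where the share over the whole table was 31%, and 52.3% under high salt, where it was 31.2%. Higher were 16.3% under low salt against 30.1% over the whole table, and 19.7% under high salt against 32.8%. With auxin under low salt 33.2% were lower, which did not exceed the 35.7% of the whole table, and 20.9% were higher against 28.5%. With auxin under high salt 42.7% were lower against 32.2%, and 23.5% higher against 35.3%.

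The size of the difference followed the wild-type level. Nucleosomes with a control value above 0 were put into 6 classes by that value, with the same limits inside and outside the clusters, since any nucleosome picked for a high control value is on average lower in a second library. In the top 1% of wild type under high salt, the 2919 nucleosomes of the cluster had a median of 1690.2 in wild type and 121 in *prde-1*, while the 1168 outside both clusters had 1446 and 1190.0. In the lowest of the 6 classes of wild type, the medians in *prde-1* were 92 inside and 97.7 outside. The high-salt *prde-1* median thus stayed between 92 and 148 over the wild-type classes inside the cluster and rose outside. Under low salt it rose inside as well, from 62.3 in the lowest class to 209.7 in the 90th to 99th percentile class and 206 in the top class, while outside it rose from 67 to 431 and 946.

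**Figure D1:**
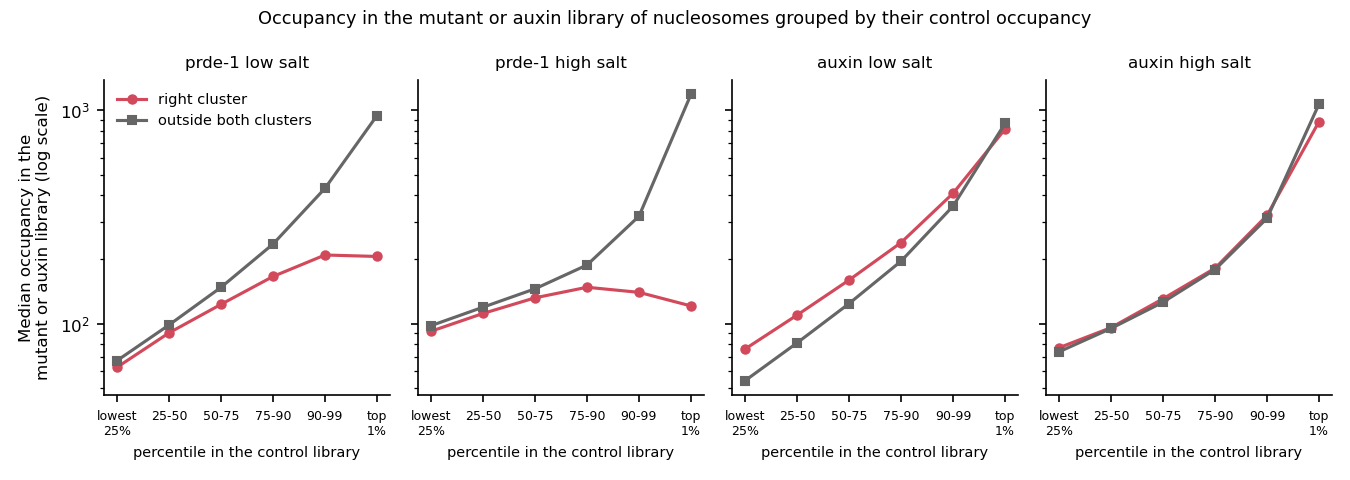
Median occupancy in the *prde-1* or auxin library (vertical axis, log scale, signal units) of nucleosomes grouped by the percentile of their occupancy in the control library (horizontal axis), for nucleosomes of the right cluster (red circles) and outside both clusters (grey squares). In *prde-1* under high salt the cluster's line stays between 92 and 148 while the outside line climbs to 1190.0, and with auxin under high salt the 2 lines lie close, at 886 and 1071 in the top class.

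Auxin gave another picture. Under high salt the top class of the ethanol library had a median of 2077 with ethanol and 886 with auxin in the cluster, and 1846 and 1071 outside. In the 75th to 90th percentile class the auxin medians were 182 and 179. Under low salt the cluster kept the higher auxin median in every class below the top 1%, 159.9 against 124 in the class just above the median. The top 1% of all nucleosomes, with those at 0 counted, held 3365 of the cluster in wild type under high salt. Of these 65, or 1.93%, were also in the *prde-1* top 1%, 52.5% were below the median of the *prde-1* library and 773 were listed at 0. Of the 2878 in the ethanol top 1% under high salt, 1247, or 43.3%, were also in the auxin top 1%, 2.33% were below the auxin median and 20 were at 0.

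Along the cluster, wild-type occupancy stood above the rest of the genome in every one of 38 windows of 100 kb, at both salts. The same held with ethanol at both salts and with auxin under low salt, and with auxin under high salt in 37 windows. In *prde-1* 27 windows were above and 11 below under low salt, and 11 above and 27 below under high salt. The highest window in wild type, from 16 to 16.1 Mb, held 486 piRNA genes, the most of any window, and 1 protein-coding gene. Its median occupancy was 322 in wild type against 157 in *prde-1* under low salt, 352 and 114.7 under high salt, 305 with ethanol and 268 with auxin under low salt, and 316 and 229 under high salt. The next in wild type under high salt were the windows from 16.6 Mb, with 358 piRNA genes and a median of 335, and from 15.3 Mb, with 430 and 334. The lowest was the first window, from 13.5 Mb, with 24 piRNA genes, the fewest, and a median of 138 in wild type and 147.4 in *prde-1* under high salt. The windows from 16.3 Mb (189 piRNA genes, median 172) and 17.2 Mb (146 genes, 197) came next.

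Over the 38 windows, the number of piRNA genes had a Pearson correlation with the wild-type log2 ratio of 0.77 under low salt and 0.84 under high salt, and with that of *prde-1* of −0.10 and −0.48. These are descriptions over neighbouring windows of 1 library. GC content, which ran from 29.9% to 35.5%, moved with both, at −0.77 with the number of piRNA genes and −0.68 with the wild-type ratio under high salt, and its part in the pattern over windows was not tested. The change in *prde-1* under high salt ran from 0.07 in the first window to −1.94 in the window from 15.3 Mb, with a correlation with piRNA genes of −0.88, and under low salt from −0.30 to −1.31. After auxin the change under high salt ran from −0.11 to −1.01 with a correlation of −0.67, and under low salt from 0.01 to −0.37 with one of −0.04.

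**Figure D2:**
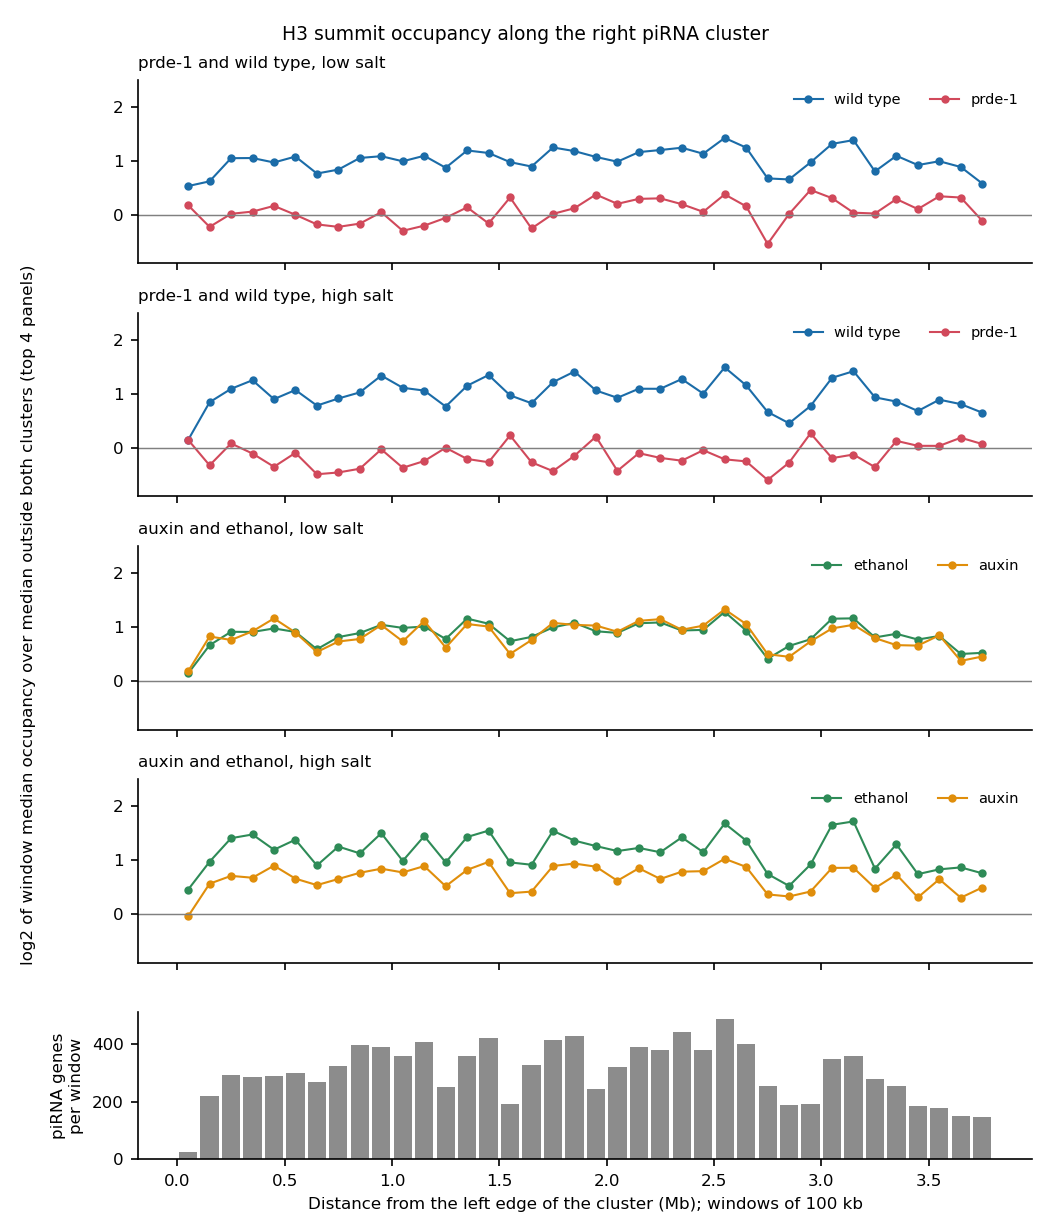
Log2 of the median occupancy of each 100-kb window over the library's median outside both clusters (4 upper panels, 1 table each) and the number of annotated piRNA genes per window (grey bars), by distance from the left edge of the cluster in Mb. Wild type (blue) and ethanol (green) lie above 0 in all 38 windows, *prde-1* (red) lies around 0, and auxin (orange) overlaps ethanol under low salt and lies below it in every window under high salt.

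Windows of 50 kb separated a gap within the cluster. The window from 16.3 to 16.35 Mb, with 16 piRNA genes, 13 protein-coding genes and 36.5% GC, was the only one of 76 with a wild-type ratio below 0, at −0.35 at both salts, and it was also below 0 with ethanol, at −0.35 and −0.77. The next window, from 16.35 Mb, with 173 piRNA genes and 31.6% GC, had wild-type ratios of 1.43 and 1.34. In *prde-1* under high salt the change was −0.05 in the former and −1.42 in the latter. In bins of 10 kb, the 34 bins with no piRNA gene had a wild-type ratio of 0.46 under high salt and a *prde-1* change of 0.22, and under low salt 0.73 and 0. The 50 bins with more than 50 piRNA genes had wild-type ratios of 1.58 and 1.34 at high and low salt and *prde-1* changes of −2.27 and −1.32. Regions of the cluster without piRNA genes thus stood above the rest of the genome in wild type and were not lower in *prde-1*. With auxin the changes in the bins without piRNA genes were −0.34 and −0.35 for low and high salt, and −0.13 and −0.94 in the bins with more than 50.

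The edges differed. Over the last 200 kb of the cluster against the right flank, which the chromosome end limits to 193829 bp, the median was 199 inside and 83.2 in the flank in wild type under low salt, a log2 step of 1.26, and 209.7 and 106 under high salt, a step of 0.98. The steps were 0.56 and 0.48 in *prde-1*, 0.77 and 1.04 with ethanol, and 0.45 and 0.58 with auxin. The right flank itself stood below the rest of the genome, with log2 ratios of −0.53 and −0.24 in wild type and −0.51 and −0.34 in *prde-1*. The last 200 kb of the cluster had ratios of 0.73 and 0.75 in wild type and 0.06 and 0.14 in *prde-1*. At the left edge the first 200 kb of the cluster differed little from the flank in wild type, with 177 inside and 186 in the flank under low salt, a step of −0.07, and 174 and 157 under high salt, a step of 0.15 (0.05 to 0.29), which was −0.11 over 100 kb on each side. The left flank itself stood above the rest of the genome, with log2 ratios of 0.63 and 0.33 in wild type and 0.55 and 0.44 in *prde-1*, and it holds 5 piRNA genes. In *prde-1* the step at the left edge was −0.61 under low salt and −0.51 under high salt, so the cluster began there with lower occupancy than its flank. The first 100 kb hold 24 of the 245 piRNA genes of the first 200 kb, and in 20-kb bins the wild-type ratio under high salt was −0.05 from 80 kb inside the edge, where there are 12 piRNA genes, and 1.00 from 100 kb, where there are 52.

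**Figure D3:**
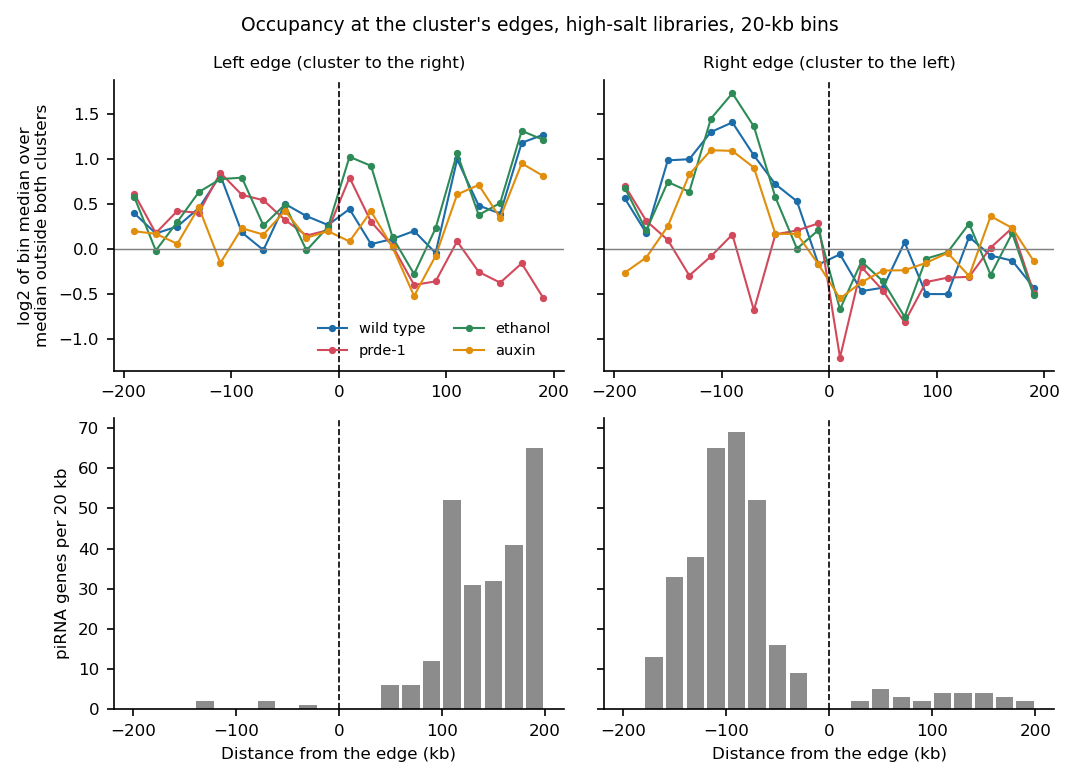
Log2 of the median occupancy of 20-kb bins over the median outside both clusters in the 4 high-salt libraries (upper panels) and piRNA genes per bin (lower panels), by distance in kb from the left and the right edge of the cluster (dashed lines, cluster at positive distances on the left and negative on the right). At the left edge the lines separate where the piRNA genes begin, about 100 kb inside, and at the right edge wild type reaches 1.41 where a bin holds 69 piRNA genes and falls below 0 in the last bin of the cluster, which holds none.

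At a finer scale, high occupancy lay within 250 bp of piRNA 5′ ends. In wild type under high salt the median occupancy was 413 for nucleosomes up to 100 bp from a piRNA 5′ end, 291 for those beyond 100 and up to 250 bp and 146 beyond 250 and up to 500 bp. In *prde-1* under high salt the same classes had medians of 103, 114.7 and 111. Nucleosomes next to piRNA genes were thus the highest class of the cluster in wild type and the lowest in *prde-1* with this wash. Relative to the rest of the genome, the nearest class had a log2 ratio of 1.72 in wild type and −0.37 in *prde-1*, and the class beyond 5000 bp 0.41 and 0.58. The change in *prde-1* under high salt was −2.36, −1.80 and −0.40 in the 3 near classes, −0.22 beyond 500 and up to 1000 bp, −0.04 from there to 5000 bp and 0.23 beyond 5000 bp. Under low salt it was −1.29, −1.26 and −0.61 in the 3 near classes and −0.01 beyond 5000 bp. After auxin under high salt the change was −0.97 and −0.83 in the 2 nearest classes, −0.03 in each of the next 3 and −0.33 beyond 5000 bp. Under low salt auxin gave no such order, with −0.14 nearest and −0.35 farthest.

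**Figure D4:**
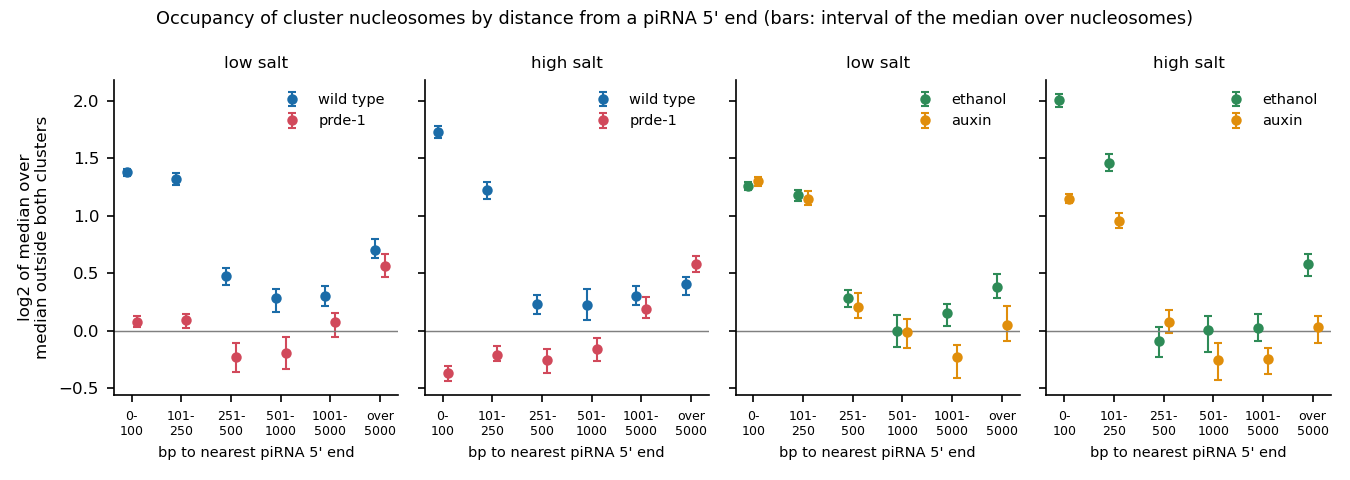
Log2 of the median occupancy over the median outside both clusters for nucleosomes of the cluster, by distance in bp from the nearest piRNA 5′ end, in the 8 libraries (bars are 95% intervals of the median over nucleosomes). In wild type under high salt the points fall from 1.72 to 0.23 in the class up to 500 bp, and in *prde-1* they rise from −0.37 next to the piRNA genes to 0.58 beyond 5000 bp.

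Dyads were arranged around the piRNA 5′ ends. In 10-bp bins, 13.2% of the piRNA genes had a dyad 140 to 131 bp upstream in wild type under low salt and 13.9% had one 130 to 121 bp upstream under high salt, against a mean of 5.69% and 5.80% over bins. The share at this upstream peak was 9.09% and 8.33% in *prde-1*, 12.7% and 13.2% with ethanol, and 10.7% and 11.6% with auxin, under low and high salt. The DNA of a nucleosome reaches to both sides of its dyad, and how much of it was covered is not shown by these shares. Between this peak and the 5′ end was a gap in dyads. Its lowest bin lay between 70 and 51 bp upstream, just upstream of the usual place of the Ruby core, in all libraries except auxin under high salt, where it lay 50 to 41 bp upstream. It held 2.06% and 1.89% of genes in wild type, 4.15% and 4.12% in *prde-1*, 2.35% and 1.95% with ethanol and 3.26% and 2.83% with auxin. A second, lower peak lay 40 to 69 bp downstream, with 8.51% and 9.60% in wild type and 7.34% and 7.47% in *prde-1*. The mean occupancy of the dyads in the upstream peak was 667 and 1293 in wild type, 152 and 109 in *prde-1*, 628 and 1321 with ethanol, and 499.8 and 632 with auxin. In *prde-1* the positional peak was thus lower and its nucleosomes were also less occupied. Between 27.4% and 30.1% of the cluster's nucleosomes are listed with the same dyad in both libraries of a table, and whether these were placed independently was not tested. Without them the upstream peak held 10.2% and 10.1% in wild type and 6.32% and 5.98% in *prde-1*.

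**Figure D5:**
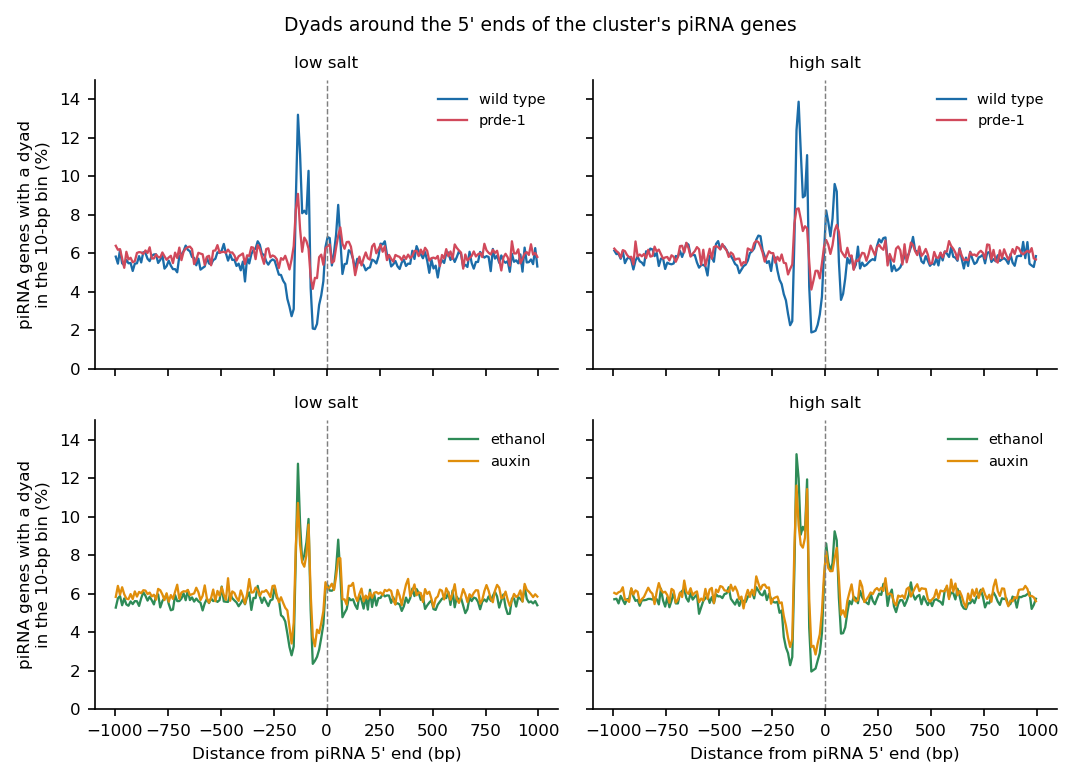
Share of the cluster's 11534 piRNA genes with a dyad in each 10-bp bin (vertical axis, percent) by distance in bp from the 5′ end (horizontal axis, negative upstream). Wild type and ethanol have a peak upstream at 13.2% or 12.7% and more, a gap in dyads near −60 bp and a smaller peak near 50 bp downstream, and *prde-1* has the same outline with a peak of 8.33% to 9.09% and a shallower gap.

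The nearest dyad within 200 bp upstream, found for 10987 and 11121 of the genes in wild type under low and high salt, had a median occupancy of 433 and 706 in wild type and 133 and 106 in *prde-1*. It was 414 and 733 with ethanol, and 331 and 342 with auxin. The other nucleosomes of the cluster had medians of 188 and 179 in wild type and 125 and 127 in *prde-1*. The change at these upstream nucleosomes, which many genes share, was −1.78 and −3.16 in *prde-1* and −0.24 and −1.14 after auxin. In wild type they were also less fuzzy than the others, with a fuzziness score of 37.9 against 43.9 under high salt, where a higher score means a wider spread of signal around the dyad. In *prde-1* the scores under high salt were 40.6 and 42.1.

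Genes with the exact Ruby core had the higher upstream nucleosome. Under high salt its median was 1157 (1113 to 1204) with the core and 509 (494 to 528) without in wild type, and 106 and 106 in *prde-1*. The wild-type intervals are over 3819 genes with the core and 7302 without, not over distinct nucleosomes. Under low salt the medians were 574 and 375 in wild type and 134 and 133 in *prde-1*. They were 1219 and 521 with ethanol and 499 and 283 with auxin under high salt, and 537 and 360 with ethanol and 388 and 297 with auxin under low salt. Of the genes with the core, 47.2% had the dyad 150 to 111 bp upstream in wild type under high salt, and of those without it 33.2%, while in *prde-1* the shares were 26.4% and 22.8%. Copies of the core with no piRNA 5′ end within 500 bp were rare in the cluster, 140 in number. The 67 with a dyad within 160 bp upstream had a median of 314 (224 to 502) in wild type under high salt, against 1249.5 for copies that serve a piRNA gene and 185 (167 to 205) for 614 copies elsewhere on chromosome IV. In *prde-1* the same 3 medians were 129, 98.4 and 126. Another 653 copies in the cluster served no piRNA gene but had a piRNA 5′ end within 500 bp. Under high salt those with a dyad had a median of 889 (800 to 1003) in wild type and 107 in *prde-1*.

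A nucleosome can lie upstream of several genes, also on both strands. In wild type under high salt the 887 nucleosomes that were the upstream nucleosome of genes on both strands had a median of 1030.2, those of 1 gene 611, those of several genes on 1 strand 644 and those of no gene 179. In *prde-1* under high salt the order was turned over, with 91.5, 105, 103 and 129. Of the pairs of neighbouring 5′ ends, 7682 were tandem, 1926 divergent and 1925 convergent, and 2854 of the tandem pairs lay within 10 bp of each other. Among pairs 100 to 300 bp apart, the highest nucleosome between divergent 5′ ends had a median of 1091 in wild type under high salt, between tandem ones 797 and between convergent ones 416. In *prde-1* the medians were 114, 130.4 and 157. Under low salt the wild-type medians were 586, 476 and 325. With ethanol under high salt they were 1199.6, 797 and 407 and with auxin 528, 388 and 284, so the order of wild type was still present with auxin.

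The locus of 21ur-684 and 21ur-843 shows such a pair. The genes diverge inside an intron of C52D10.3 with 5′ ends 259 bp apart, and the stretch between and including them, plus strand, chrIV:17184138-17184437, has both piRNAs and both Ruby cores in capitals, with the wild-type dyad under high salt at base 157.
21ur-684 and 21ur-843: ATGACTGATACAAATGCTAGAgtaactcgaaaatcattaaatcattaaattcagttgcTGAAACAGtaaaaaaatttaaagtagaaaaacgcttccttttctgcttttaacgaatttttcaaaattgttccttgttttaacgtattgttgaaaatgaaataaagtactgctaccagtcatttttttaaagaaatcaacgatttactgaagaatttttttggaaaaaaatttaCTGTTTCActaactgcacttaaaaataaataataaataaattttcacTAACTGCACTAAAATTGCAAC

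This dyad lay 136 bp from one 5′ end and 123 bp from the other. The nucleosome had an occupancy of 2637 in wild type and 105 in *prde-1* under low salt, 5709 and 166 under high salt, 1650.5 with ethanol and 2139 with auxin under low salt, and 8808 and 3846 under high salt. It was the highest nucleosome of the cluster with ethanol under high salt. Only the *prde-1* libraries had it near their median, at percentiles 46.2 and 58.0, and it was above the 99th percentile in the other 6.

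The 3 upstream nucleosomes with more wild-type signal under high salt, chosen for that value, were also far lower in both *prde-1* libraries than in wild type. The one between the divergent genes 21ur-11745 and 21ur-3691, whose 5′ ends are 177 bp apart, had 2168 in wild type and 345 in *prde-1* under low salt, 6962 and 200.3 under high salt, 1897 with ethanol and 1559 with auxin under low salt, and 8122 and 5877 under high salt. The exact core was found upstream of neither 21ur-11745 nor 21ur-3691. The nucleosome upstream of 21ur-8191 had 2569.8 and 155 under low salt and 6604 and 0 under high salt in wild type and *prde-1*. With ethanol and auxin it had 2189.7 and 1426 under low salt and 5637 and 3196 under high salt. Both were above the 99th percentile in all libraries except those of *prde-1*. The nucleosome upstream of 21ur-14044 and 21ur-11461, whose 5′ ends are 1 bp apart and share 1 core, had 2638 and 362 under low salt and 6011 and 223 under high salt in wild type and *prde-1*, and 1479 and 1944 under low salt and 6313 and 3347 under high salt with ethanol and auxin. The fifth, beside 21ur-734 and 21ur-14396, had 5673 and 246 under high salt in wild type and *prde-1*.

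Single piRNA genes chosen only for their low numbers varied more. The nearest dyad was taken in each library by itself, so values of a gene in different libraries need not belong to the same nucleosome. The nearest upstream nucleosome of 21ur-2 had an occupancy of 1950.0 in wild type and 67.4 in *prde-1* under low salt, 2819 and 50.7 under high salt, 1197 with ethanol and 1057 with auxin under low salt, and 3244 and 2161 under high salt. The wild-type dyads were 106 and 107 bp upstream and the *prde-1* dyads 8 and 107 bp upstream, so the low-salt pair compares different nucleosomes. That of 21ur-7 had 825 and 161 under low salt and 2833 and 180.8 under high salt in wild type and *prde-1*, and 737 and 840.0 under low salt and 4611 and 2376 under high salt with ethanol and auxin. Its high-salt dyads were 76 bp upstream in wild type and 10 bp upstream in *prde-1*. Both genes carry the exact core, and in both the *prde-1* value was below the wild-type value at both salts. The values for 21ur-6 were 341 and 94.5 under low salt, 1005 and 119.9 under high salt in wild type and *prde-1*, and 805, 792, 1837 and 1128 with ethanol and auxin under low and then high salt. For 21ur-6 the wild-type dyad was 14 bp upstream in the low-salt library and 114 bp upstream in the high-salt one. For 21ur-1, with no dyad called within 200 bp upstream in wild type under low salt, they were 243 in *prde-1* under low salt, 1458 and 189 under high salt in wild type and *prde-1*, and 618, 205, 1632 and 483 with ethanol and auxin, and its high-salt dyads were 80 bp upstream in wild type and 24 bp upstream in *prde-1*.

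The exact core was not found at 21ur-4 and 21ur-5. For 21ur-4 the values were 401 in wild type and 322 in *prde-1* under low salt and 1365 and 102 under high salt, and with ethanol and auxin 55.9 and 0 under low salt and 1131 and 161 under high salt. For 21ur-5 the values were 418 and 0 under low salt and 566 and 46.4 under high salt in wild type and *prde-1*, and 401 and 70.02 under high salt with ethanol and auxin. No dyad lay within 200 bp upstream of it in the low-salt YL701 libraries. The first piRNA gene of the cluster, 21ur-6256, in an intron of F52G2.3, had no dyad within reach in either high-salt library of wild type and *prde-1*. Its low-salt values were 345 in wild type, 200.2 in *prde-1*, 253 with ethanol and 195 with auxin, and its high-salt values 448 with ethanol and 561 with auxin. The last, 21ur-12651, had 18.5 in wild type, 0 in *prde-1*, 164 with ethanol and 53.2 with auxin under low salt, and 504, 362, 36.1 and 117 in that order under high salt. The 20-kb bins around these outermost genes held 6 and 9 piRNA genes.

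Most nucleosomes of the cluster, 55.5% to 56.8%, lay between protein-coding genes, 28.2% to 28.8% in introns and 14.5% to 15.7% in exons. In wild type under high salt the medians were 275, 254 and 174, and the *prde-1* changes −1.53, −1.15 and −0.41, in that order. On the stretch of chromosome IV between the clusters the same classes had wild-type medians of 116, 118 and 130.1 and changes of −0.05, −0.04 and −0.05. Exons thus had the lowest wild-type median of the 3 classes inside the cluster, and under high salt the highest between the clusters. Under low salt the wild-type medians between the clusters were 108.7, 115.9 and 107.6 in the same order, so exons were lowest there too. With ethanol exons were also the lowest class between the clusters, at 114.0 under low salt and 92.8 under high salt. The protein-coding gene with most nucleosomes, Y105C5A.15 (WBGene00013639, chrIV:15689201-15722553, plus strand), spans 118 piRNA genes. Its median was 334 in wild type against 216 in *prde-1* under low salt, 320.2 and 162 under high salt, 311 with ethanol and 249 with auxin under low salt, and 293 and 250.7 under high salt.

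Fuzziness is given in score units, which share no scale with the log2 changes of occupancy. The median score of the cluster was 43.6 in wild type against 43.4 in *prde-1* under low salt, 41.6 and 41.7 under high salt, 43.9 with ethanol and 44.5 with auxin under low salt, and 43.0 and 44.2 under high salt. Outside both clusters the medians in the same order were 41.4, 42.4, 40.2, 41.2, 41.0, 42.9, 43.4 and 43.6, so the cluster was fuzzier than the rest of the genome in every library except ethanol under high salt. Per nucleosome and relative to outside, the *prde-1* score moved by −0.98 in the low-salt table and −1.16 in the high-salt one, and the auxin score by −0.70 and 0.37. Among nucleosomes that reached 50 in each library of the table, the *prde-1* values were −3.27 and −3.55, and the high-salt auxin value was −0.067. The wild-type top 1% of the cluster had a median score of 33.2 under high salt and its other nucleosomes 44.4.

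Dyads with an occupancy of at least 50 lay closer together in the cluster than elsewhere in wild type. The median distance between neighbours was 189 bp in the cluster and 213 bp outside under low salt, and 182 and 204 bp under high salt. The *prde-1* distances were 207 and 209 bp under low salt and 205 and 201 bp under high salt. With ethanol it was 192 and 215 bp under low salt and 185 and 218 bp under high salt, and with auxin 193 and 219 bp and 189 and 211 bp. The number of such dyads in the cluster was 17481 in wild type against 14845 in *prde-1* for the former wash and 17625 and 14770 for the latter. With no minimum occupancy the order was turned over, with 171 bp in wild type and 162 bp in *prde-1*, and 166 and 161 bp. This was not particular to the cluster or to *prde-1*. Outside both clusters the distances were 177 and 170 bp, and 172 and 165 bp. With ethanol and auxin in the cluster they were 171 and 161 bp, and 165 and 158 bp. Every nucleosome of the cluster has a listed *prde-1* dyad, but 908 and 857 have none in wild type. With the minimum of 50 but without nucleosomes listed at the same dyad in both libraries, the low-salt wild-type and *prde-1* distances were 226 and 227 bp. The high-salt ones were 225 and 226 bp, and 243 bp in wild type outside both clusters. Leaving dyads out opens holes between the rest, and under low salt it kept 13524 dyads in wild type and 13066 in *prde-1*. Distances over 300 bp then made up 28.7% and 30.4%. These values thus cannot show whether the spacing of neighbours differed. Over all dyads with an occupancy of at least 50, distances over 300 bp made up 13.2% and 14.0% in wild type and 23.4% and 25.2% in *prde-1*. Where the 2 libraries of a table had different dyads, the median shift was 25 and 28 bp for *prde-1* and 23 and 26 bp for auxin under low and high salt, and 24, 26, 27 and 30 bp outside both clusters.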

How the data were processed

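Of 52 samples, 16 H3 samples in 8 groups enter here, their inputs only by way of the authors' subtraction, and 20 others were not analysed. The published methods state that Bowtie2 placed reads on ce11 and that the authors then removed duplicates, downsampled and merged the 2 samples of each group, corrected GC content and called nucleosomes with DANPOS3. Only the *prde-1* tables are named as GC corrected. The deposited occupancy is a signal, H3 minus input, scaled by the authors to 1 total per library, which hides any genome-wide loss. Drosophila chromatin was added as a spike-in, but the deposited tables hold no value scaled by it. The fuzziness score was deposited as DANPOS3 gave it. The authors' fold changes, p-values and FDR were not used. Read depth behind each value is unknown, so no interval that needs it is given.

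Each table was normalized on its own, so levels are compared between tables only as ratios within a library. Changes are log2 of treated over control with a pseudocount of 1, minus the median outside both clusters. Python 3.11.15, pandas 2.3.3 and SciPy 1.17.1 were used, with genes from the Ensembl 115 annotation of the same build. The procedures were tested on simulated data. No group has more than 1 library, so no test was made. The named piRNA genes were the 6 with the lowest numbers, the first and the last by position, and those served by the 5 highest upstream nucleosomes of wild type under high salt, and the named windows were the 3 highest and the 3 lowest of the latter library and the 3 with fewest piRNA genes. Alternatives covered a pseudocount of 10, the mean, a minimum occupancy of 50, the point occupancy, chromosome IV as reference, other windows and 1 mismatch in the motif. Bins of GC content and leaving out nucleosomes of equal dyads were chosen after seeing the data. The members and lists were chosen with earlier results of these data known.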

Additional observations from a re-analysis of the deposited data

Results flagged for a closer look

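The low-salt and high-salt tables gave median changes of opposite sign in 4 places, and the difference between the washes was not tested in any of them. In the first 100-kb window of the cluster the *prde-1* change was −0.31 under low salt but 0.07 (0.066) under high salt, while the auxin change was 0.012 and −0.15. For nucleosomes more than 5000 bp from a piRNA 5′ end the *prde-1* change was −0.0082 in the former and 0.23 in the latter. Relative to outside both clusters, the fuzziness score of the cluster changed with auxin by −0.70 under low salt and by 0.37 under high salt. The cluster's own median change was above 0 at both salts, at 0.62 and 0.53, against 1.32 and 0.15 outside.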

How the results depend on the processing

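No paired analysis was possible because the 2 samples of each group were merged into 1 library before nucleosomes were called, and for the same reason no sample was left out in turn. The *prde-1* and auxin changes of the cluster stayed below 0 under every setting tried. In bins of GC content the cluster's log2 ratio to the rest of the genome was 0.99 and 1.14 in wild type, −0.051, turned from above 0, and −0.22 in *prde-1*, 0.98 with ethanol under high salt, and 0.58 and 0.41 with auxin, and the changes were −0.98 and −1.47 in *prde-1* and −0.27 with auxin under low salt. With the rest of chromosome IV as reference the ratios were 0.96 and 0.95 in wild type, −0.17 in *prde-1* under high salt, and 0.84 and 1.07 with ethanol. With means they were 1.64 in wild type under high salt, −0.023 in *prde-1* under low salt, again turned, 1.80 with ethanol under high salt, and 0.70 and 0.84 with auxin, and the changes −1.40 and −1.79 in *prde-1* and −0.13 and −0.77 with auxin. Over nucleosomes with a mean occupancy of at least 50 the ratios were 0.77 and 0.87 in wild type, −0.16, also turned, and −0.25 in *prde-1*, 0.64 and 0.95 with ethanol and 0.53 and 0.46 with auxin, and the changes −0.9988, −1.44, −0.15 and −0.92. The point occupancy, taken where the libraries of a table differ most and 0 in many nucleosomes of one of them, gave −10.83 and −12.69 for *prde-1* and −1.25 and −9.17 for auxin. A pseudocount of 10 gave −0.84 and −1.15 for *prde-1*. Without equal dyads the changes were −0.78 and −1.02 for *prde-1* and −0.83 for auxin under high salt. With 100 kb on each side the step at the left edge turned to −0.11 in wild type under high salt and to −0.16 with auxin under low salt, and with a minimum of 50 in both libraries the auxin change in fuzziness under high salt turned to −0.067. The cause of these shifts was not tested. Read depth is unknown, so it sets no stated limit here.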
